A study of Homo sapiens with 12 samples.

Results

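The design of the experiment crosses a pair of treatments in HCT116 TIM-mAID cells, and this section concerns the departure of the combination from the sum of both single treatments. All 12 of the 12 libraries were used, in 4 groups of 3 taken from the sample titles. HCT116 is a human colorectal cancer line, and the TIM-mAID derivative, 1 line with the genotype label WT CRSIPR KI mAID, carries a mini auxin-inducible degron (mAID) knocked in by CRISPR, by its name at TIMELESS. For each gene the interaction was computed as the combination minus 5-Ph-IAA minus ATRi plus DMSO on the log2 scale. It is 0 where the log2 changes of both compounds add up, negative where the combination lies below that sum, and positive where it lies above.

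The DMSO group received vehicle only, the 5-Ph-IAA group 1 µM 5-phenyl-1H-indole-3-acetic acid, the ATRi group 1 µM ceralasertib, and the 5-Ph-IAA/ATRi group, called the combination here, both compounds. Every group was taken at 40 h, every group carries the degron knock-in, and both compounds were dissolved in DMSO. The design text calls the 3 libraries of a group biological replicates. Because TIMELESS is removed as protein, its RNA does not check the labels.

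TIMELESS and TIPIN form a complex that travels with the replication fork and helps to keep it stable. ATR is the kinase that answers exposed single-stranded DNA at stalled forks, and through CHK1 it restrains new origin firing and entry into mitosis. When both safeguards fail, damaged forks can activate p53, which induces CDKN1A and, through the DREAM complex, represses genes of the G2 and M phases.

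Deposited totals ran from 27695875 to 34704711 estimated counts per library, and 18049 of 62700 genes passed the filter on low counts. Mitochondrial transcripts took 6.63% to 14.9% of the counts, with the lowest share of each group in set 3 and the highest share of all in DMSO 2. The 7 colonic epithelial markers summed to between 4430 and 6420 CPM in DMSO and 5-Ph-IAA, 5840 to 6280 in ATRi and 9880 to 11300 in the combination. These CPM, those of single epithelial markers in this paragraph and the COL1A1 range are counts scaled to the library total alone. Other CPM also carry TMM factors. The higher sum lay in the keratins KRT8 (1840 to 2080 CPM in DMSO, 4490 to 5520 in the combination), KRT18 and KRT19. EPCAM ran from 377 to 521 CPM in DMSO and from 329 to 369 in the combination. In CDH1 and CDX2 the DMSO and combination libraries overlapped, and VIL1 lay under 1 CPM throughout. Of the 9 markers of other cell types, 7 lay under 1 CPM in each group, while the collagen gene COL1A1 ran from 36.2 to 100 CPM. In the wider list of such markers, 10 of 20 members were tested for the interaction, with a median of -0.06, 5 positive and 0 called, and 2 had an unadjusted p under 0.05. These were the monocyte and macrophage genes CD14 (means of 0.12, 0.12, 0.21 and 0.63 CPM in DMSO, 5-Ph-IAA, ATRi and combination, interaction 1.59 ± 0.57, adjusted p = 0.606) and CD68 (8.77, 12.3, 12.5 and 33.6 CPM, 0.94 ± 0.41, adjusted p = 0.659), both higher in the 3 combination libraries than in the other 9. The part of such markers in the results was not tested. In bulk RNA, fewer cells in a state and less RNA per cell cannot be told apart.

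In the combination, relative RNA levels of several mitotic genes lay far below the level that the single treatments add up to. Those of NR4A1 and CCN1 lay above it. The interaction passed an adjusted p of 0.05 (edgeR quasi-likelihood test, Benjamini-Hochberg over all genes tested) in 14 of 18049 genes, or 0.0776%. Of these, 12 were lower than the sum (0.0665% of genes tested) and 2 higher (0.0111%). At an unadjusted p under 0.05 there were 1317 genes (7.30%), 749 lower (4.15%) and 568 higher (3.15%). The median interaction over all genes was 0.00 (log2), and 50.3% of genes were positive.

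The phosphatase CDC25C, which activates CDK1 at entry into mitosis (chromosome 5, 138285265 to 138338355, GRCh38.p14), had the smallest p. Its level was 16.8, 14.98 and 19.7 CPM in DMSO, 14.9, 16.1 and 19.2 in 5-Ph-IAA, 9.75, 9.10 and 10.2 in ATRi, and 1.93, 2.07 and 2.17 in the combination. Every combination library lay below all 9 others, while the 5-Ph-IAA libraries overlapped DMSO and the ATRi libraries lay below it. The interaction was -2.20 ± 0.21 (log2 ± SE; 95% interval -2.66 to -1.74; adjusted p = 0.003576), and the fitted combination level was 21.7% of that expected from the log2 sum. The log2 difference that ATRi made to CDC25C was -0.82 ± 0.14 without 5-Ph-IAA (adjusted p = 0.08344, not past the threshold) and -3.02 ± 0.15 with it (adjusted p = 5.92e-06).

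The kinetochore and the chromosomal passenger complex, which attach chromosomes to the spindle and correct faulty attachments, supplied 3 further calls. NDC80, a microtubule-binding kinetochore subunit, stood at 59.1, 54.3 and 56.6 CPM in DMSO, 52.6, 48.7 and 51.1 in 5-Ph-IAA, 34.4, 23.6 and 33.3 in ATRi, and 7.30, 6.43 and 8.45 in the combination. Its partner NUF2 stood at 46.5, 34.1 and 47.8 CPM in DMSO, 47.5, 32.0 and 47.9 in 5-Ph-IAA, 30.9, 20.4 and 30.6 in ATRi, and 6.30, 6.503 and 7.24 in the combination. Both were lowest in the 3 combination libraries and again low, among the ATRi libraries, in ATRi 2. Their interactions were -1.88 ± 0.22 (adjusted p = 0.0145) and -2.02 ± 0.30 (adjusted p = 0.0394). AURKB, the kinase of the passenger complex, had 61.5, 58.5 and 65.2 CPM in DMSO, 82.3, 50.2 and 60.1 in 5-Ph-IAA, 46.4, 25.8 and 40.7 in ATRi, and 9.63, 7.92 and 8.63 in the combination. The 3 combination libraries were again below all others, and the interaction was -2.16 ± 0.31 (adjusted p = 0.0394).

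CENPA, the histone H3 variant that marks centromeres, and HJURP, its chaperone, both lay below the sum. CENPA measured 20.3, 18.3 and 22.7 CPM in DMSO, 20.7, 17.8 and 21.1 in 5-Ph-IAA, 13.2, 10.8 and 14.8 in ATRi, and 3.08, 3.89 and 3.83 in the combination. The DMSO and 5-Ph-IAA libraries overlapped, ATRi lay below both and the combination below ATRi, with an interaction of -1.80 ± 0.22 (adjusted p = 0.0194). HJURP averaged 69.8 CPM in DMSO, 64.0 in 5-Ph-IAA, 39.1 in ATRi and 9.86 in the combination, with an interaction of -1.86 ± 0.24 (adjusted p = 0.0218). CDKN3, a phosphatase of cyclin-dependent kinases, fell short of the sum by 1.51 on the log2 scale (-1.51 ± 0.22, adjusted p = 0.0394), and the helicase PIF1 had the most negative value of the 14 (-2.57 ± 0.39, adjusted p = 0.0465). FAM72D was also called (-1.93 ± 0.29, adjusted p = 0.0465), but near-identical copies of this gene share reads, so its level is uncertain.

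The other 3 genes called lower were PCDH7, CPS1 and SAMD11. Of the 12 genes called lower, only 5 are in a list, that of the G2/M genes. PCDH7, a cell-adhesion protocadherin, varied little within groups, with 91.8, 86.2 and 94.1 CPM in DMSO, 79.4, 80.9 and 80.5 in 5-Ph-IAA, 65.6, 65.9 and 61.0 in ATRi, and 22.3, 22.6 and 21.3 in the combination. No group overlapped another, and the interaction was -1.36 ± 0.13 (adjusted p = 0.003576). CPS1, which makes carbamoyl phosphate for the urea cycle, averaged 48.4, 43.8, 37.3 and 13.1 CPM in the same order of groups (-1.36 ± 0.18, adjusted p = 0.0218). SAMD11 averaged 5.35, 7.46, 4.92 and 1.77 CPM (-1.95 ± 0.27, adjusted p = 0.0294).

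The 2 genes above the sum are early-response genes. NR4A1, an orphan nuclear receptor (chromosome 12, 52022832 to 52059503), had 10.2, 9.87 and 9.47 CPM in DMSO, 12.7, 10.3 and 9.23 in 5-Ph-IAA, 12.1, 11.03 and 11.9 in ATRi, and 37.4, 36.8 and 36.0 in the combination. CCN1, a secreted matrix-associated protein and a target of YAP (chromosome 1, 85580761 to 85583950), had 12.4, 16.1 and 9.24 CPM in DMSO, 12.3, 15.8 and 10.2 in 5-Ph-IAA, 18.5, 16.4 and 15.4 in ATRi, and 77.7, 63.4 and 83.3 in the combination. In both genes the combination stood above all 9 other libraries, and the 5-Ph-IAA libraries overlapped those of DMSO. The interaction was 1.53 ± 0.18 for NR4A1 (adjusted p = 0.0175) and 2.13 ± 0.30 for CCN1 (adjusted p = 0.0370), so the fitted combination levels were 288% and 439% of the log2 sum.

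**Figure D1:**
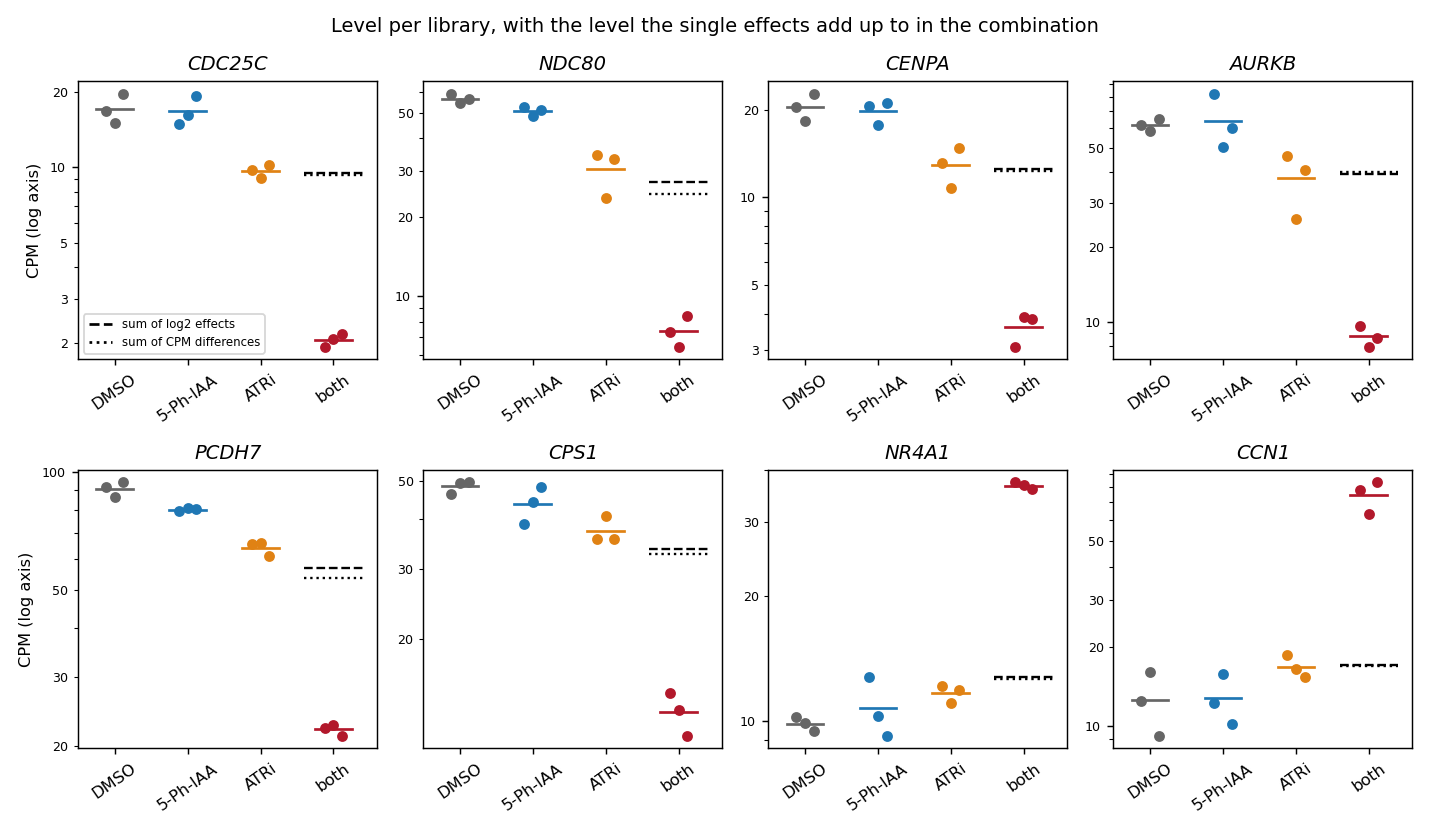
Level of 8 genes past the threshold in each library, in CPM on a log axis, by group (both: the combination); points are libraries, coloured lines group means, the dashed line the combination level expected from adding log2 effects and the dotted line that from adding differences in CPM. In all 8 genes the 3 combination libraries lie on one side of both lines and of the other 9 libraries.

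In all 14 genes the combination libraries did not overlap the other 9, which held for 8.98% of all genes tested below and 8.46% above. The threshold itself fell in a dense stretch of values. The last genes inside it were FAM72D and PIF1 (adjusted p = 0.0465), and the first outside were FAM72B (-1.90) and UBE2C (-2.27), each at an adjusted p of 0.0624. The call was sensitive to single libraries: 2 genes passed without DMSO 1, 10 without DMSO 2, 7 without DMSO 3, 5 without 5-Ph-IAA 1, 12 without 5-Ph-IAA 2 and 4 without 5-Ph-IAA 3. The numbers were 4, 15 and 2 without ATRi 1, 2 and 3, and 2, 2 and 4 without combination 1, 2 and 3. CDC25C and PCDH7 passed in all 12 of these refits, with interactions of -2.32 to -2.10 and -1.40 to -1.33. NDC80 passed in 8 and NR4A1 in 6, and the other 10 genes in 4 or fewer.

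Only genes with a mean of 5 CPM in the highest group were named among the largest values, and on the positive side 10 were named although none of them passed the threshold. Among them, the matrix protein gene TINAGL1 averaged 76.3, 97.9, 91.3 and 241 CPM in the order DMSO, 5-Ph-IAA, ATRi and combination (interaction 1.04 ± 0.17, adjusted p = 0.0717). The receptor gene GPRC5A averaged 294, 329, 297 and 762 CPM (1.20 ± 0.21, adjusted p = 0.0900), and MAFK, a small basic leucine zipper factor, 37.5, 37.2, 43.5 and 73.4 CPM (0.77 ± 0.13, adjusted p = 0.0900). In all 10 the combination libraries stood above the other 9, as in 8.46% of all genes tested. The 10 genes were picked by the smallest interaction p, so this separation adds no support of its own.

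Genes of the G2 and M phases, which build the spindle, the kinetochore and the cyclin B-CDK1 switch, had the lowest median of the 26 lists. All 48 of 48 members had a negative interaction, against 8970 of 18049 genes tested. CDC25C, NDC80, CENPA, AURKB and NUF2 passed the adjusted threshold, and 41 of the 48 had an unadjusted p under 0.05. The median interaction was -1.60, with a range from -2.27 to -0.26, against 0.00 over all genes. The median log2 difference from DMSO was -0.03 in 5-Ph-IAA, -0.64 in ATRi and -2.18 in the combination, where 45 members fell past the adjusted threshold (6.89% of all genes tested fell). These 3 comparisons share the DMSO libraries. In the effect of ATRi, the median was -0.64 without 5-Ph-IAA and -2.20 with it, and those 2 comparisons share no library.

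CCNB1, cyclin B1, had a large interaction that did not pass. Its level was 199.9, 111 and 254 CPM in DMSO, 196, 171 and 297 in 5-Ph-IAA, 146, 107 and 189 in ATRi, and 45.2, 45.3 and 52.3 in the combination. The combination was lowest in every library, but DMSO 2 lay within the ATRi range, and the interaction was -1.86 ± 0.43 (adjusted p = 0.225). It passed by DESeq2 (adjusted p = 0.007566) and with the mitochondrial share as a covariate (adjusted p = 0.00652). BIRC5, the passenger complex subunit survivin and a member of the anti-apoptotic list, also had DMSO 2 within the ATRi range (-1.67 ± 0.46, adjusted p = 0.322). The 3 members without a call against DMSO and without separated libraries, named after their values were seen, were BUB3 (-0.26), INCENP (-0.40) and ECT2 (-0.58).

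The mean log2 level of the list, set to 0 for the DMSO mean, was 0.17, -0.65 and 0.49 in DMSO 1, 2 and 3, and -0.12, -0.37 and 0.52 with 5-Ph-IAA. It was -0.63, -0.93 and -0.16 in ATRi, and -2.26, -2.20 and -1.89 in the combination. Set 3 was highest in each group, and DMSO 2, the library with the largest mitochondrial share, was lowest of its group. With that share as a covariate the list median was -1.49, and in the 8 libraries left after removing the highest mitochondrial share of each group it was -1.45.

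**Figure D2:**
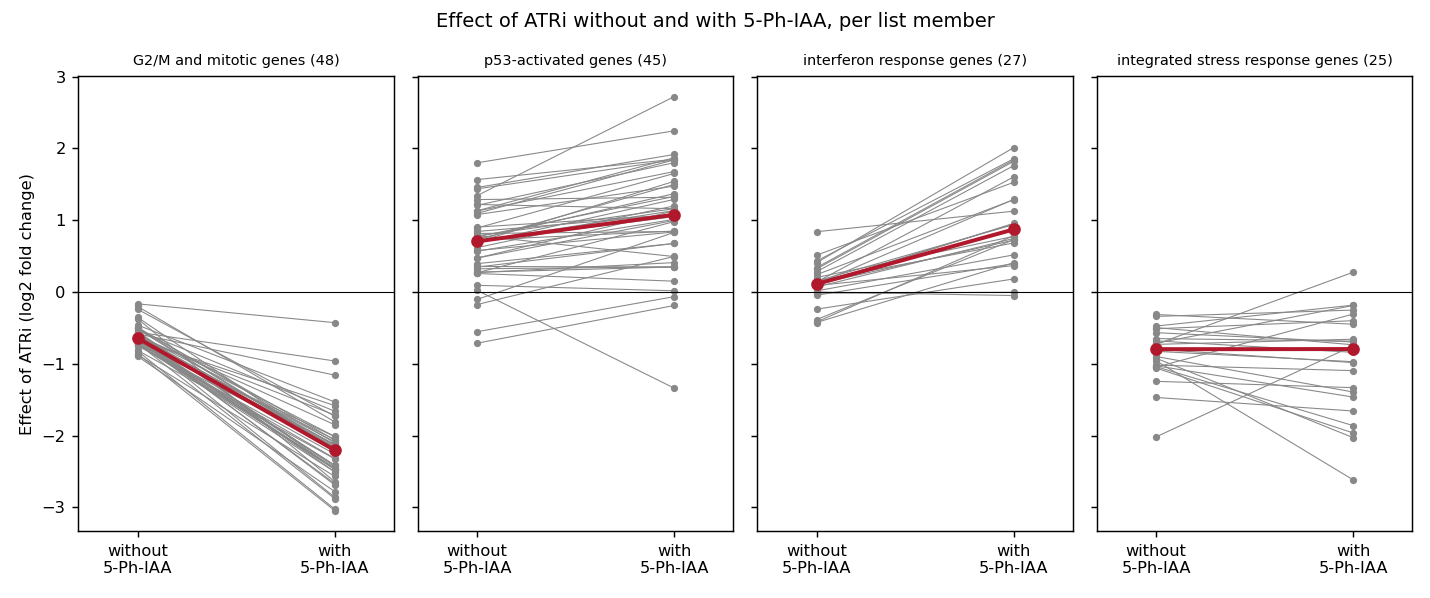
Log2 effect of ATRi without 5-Ph-IAA (ATRi against DMSO) and with it (combination against 5-Ph-IAA) for each tested member of 4 gene lists, with list medians in red; the slope of a line is the interaction of that gene. Lines of the G2/M list run from a median of -0.64 to -2.20, those of the p53 list from 0.70 to 1.08, those of the interferon list from 0.11 to 0.87, and the median of the stress response list is level at -0.80.

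Promoters of mitotic genes often hold a cell-cycle homology region (CHR, TTTGAA) near the start site, frequently with CCAAT boxes upstream, and the CHR is bound by the MuvB core of the DREAM complex. The promoters of 3 called genes that hold both motifs are shown as examples, as 160 bases ending at the base before a RefSeq start (GRCh38.p14). For PIF1 that start lies inside the span of the annotated gene. CENPA lies at chr2:26785896-26786055 on the plus strand, PIF1 at chr15:64825648-64825807 and HJURP at chr2:233854536-233854695 on the minus strand. Capitals mark TTTGAA and CCAAT on either strand.
CENPA: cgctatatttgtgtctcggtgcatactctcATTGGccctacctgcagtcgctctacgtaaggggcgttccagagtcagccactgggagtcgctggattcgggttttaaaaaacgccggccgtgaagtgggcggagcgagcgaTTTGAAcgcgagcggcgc
PIF1: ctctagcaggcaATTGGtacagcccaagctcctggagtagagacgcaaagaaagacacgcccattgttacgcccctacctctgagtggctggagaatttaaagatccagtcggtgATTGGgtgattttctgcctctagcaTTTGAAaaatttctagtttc
HJURP: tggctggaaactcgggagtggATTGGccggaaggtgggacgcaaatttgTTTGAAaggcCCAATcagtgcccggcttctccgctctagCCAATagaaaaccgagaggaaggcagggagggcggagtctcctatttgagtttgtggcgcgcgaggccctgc
In windows from 250 bases before to 50 after the start, TTTGAA on either strand occurred for 10 of the 12 genes called lower, and for 28 of the 41 G2/M genes with a RefSeq promoter (68.3%). The share over all genes with a RefSeq promoter was 18.2%. A gene counts if any of its promoters matches, and the sets differ in promoters per gene. Counted by promoter, the match occurred in 11 of 20 (55.0%) for the genes called lower and 31 of 51 (60.8%) for the G2/M genes. Over all 35116 promoters it was 15.2%. Among the other cell-cycle genes, those of G1/S and DNA replication, it occurred for 1 of 38. CCAAT on either strand occurred for 33 of the 41 G2/M genes (80.5%), 23 of 38 G1/S and DNA replication genes (60.5%), 21 of 38 p53-activated genes (55.3%) and 39.7% of all genes. Other genes called lower also matched both motifs, among them PCDH7 and CPS1. A match to these letters is a description of the window and shows no binding.

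G1/S and DNA replication genes, which supply nucleotides and build the replication machinery, lay below the sum by less. Of 45 members, 43 were negative and 0 passed the adjusted threshold, with 7 at an unadjusted p under 0.05, all negative. DESeq2 and limma-voom called 0 of them, and the fit with the mitochondrial covariate called 1 (278 of 18049 genes tested). The median was -0.77. Against DMSO, the median difference was -0.10 in 5-Ph-IAA, -0.48 in ATRi and -1.38 in the combination. There 24 members fell past the adjusted threshold (6.89% of all genes tested fell). TK1, thymidine kinase, had 213, 113 and 274 CPM in DMSO, 201, 151 and 239 in 5-Ph-IAA, 139.7, 105 and 199 in ATRi, and 53.2, 51.0 and 59.5 in the combination (-1.42 ± 0.44, adjusted p = 0.406). DMSO 2 lay near the ATRi values in TK1, as in the list, whose mean log2 level was 0.25, -0.96 and 0.71 in DMSO 1, 2 and 3. The list median was -0.42 without DMSO 2, -1.22 without DMSO 3, -0.45 without 5-Ph-IAA 3 and -0.50 without ATRi 3. The 2 positive members, named after their values were seen, were PCNA (0.38) and CCNE1 (0.57).

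Homologous recombination and Fanconi anemia genes, which repair broken and crosslinked forks, had a median of -0.80 with 29 of 34 members negative. None passed the adjusted threshold by edgeR, and 10 had an unadjusted p under 0.05, all negative. By DESeq2, 0 passed as well, and limma-voom called 0. FANCA, a subunit of the Fanconi core complex, averaged 76.2, 72.4, 48.9 and 19.0 CPM in the order DMSO, 5-Ph-IAA, ATRi and combination (-1.29 ± 0.44, adjusted p = 0.489). GEN1, a Holliday junction resolvase, averaged 30.8, 30.03, 19.9 and 9.48 CPM (-1.03 ± 0.30, adjusted p = 0.353). The list median was -0.47 without DMSO 2 and -0.50 without 5-Ph-IAA 3. Genes of the fork protection complex and ATR-CHK1 signalling were nearer to the sum (median -0.21, 15 of 19 negative, and -0.03 without 5-Ph-IAA 3), as were those of end joining and double-strand break signalling (-0.09, 19 of 24 negative, and -0.24 without DMSO 3). Of the end joining list 4 members had an unadjusted p under 0.05, edgeR called 0 and DESeq2 called 1 (212 of 18049 genes tested).

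The compounds' own targets showed no call. TIMELESS had 52.2, 30.5 and 67.9 CPM in DMSO, 39.5, 41.4 and 63.0 in 5-Ph-IAA, 30.3, 32.3 and 46.9 in ATRi, and 17.6, 24.5 and 24.5 in the combination. The combination lay below every other library, and the interaction was -0.65 ± 0.41 (95% interval -1.56 to 0.25). TIPIN, its partner, was at -0.04 ± 0.31, ATR at -0.00 ± 0.16, and CHEK1, the kinase downstream of ATR, at -0.58 ± 0.54. PRKDC, which encodes DNA-PKcs of the series title, was at -0.01 ± 0.62, an interval of -1.37 to 1.34 that leaves a change of either sign in range.

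p53-activated genes were higher in the combination than with either compound, and most lay somewhat above the log2 sum. Against DMSO their median difference was 0.35 in 5-Ph-IAA, 0.70 in ATRi and 1.46 in the combination, where 34 of 45 tested members rose past the adjusted threshold (6.24% of all genes tested rose) and 1, KITLG, fell. The interaction was positive in 39 of 45, with a median of 0.43, and 0 members passed the adjusted threshold by edgeR. At an unadjusted p under 0.05 there were 8 higher and 1 lower, the latter again KITLG (-1.36), named after its values were seen. DESeq2, which called 212 of all genes tested, called 2 members, and limma-voom, which called 9, called 0. Of the members, 6 had already risen with ATRi alone (0.0665% of all genes tested rose).

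CDKN1A, the p21 inhibitor of cyclin-dependent kinases, had 230.5, 188 and 234 CPM in DMSO, 341, 478 and 487 in 5-Ph-IAA, 596, 834 and 842 in ATRi, and 2027, 2112 and 2048 in the combination. The 4 groups did not overlap. Its interaction was 0.45 ± 0.25 (95% interval -0.11 to 1.00; adjusted p = 0.829), so on the log2 scale the combination was not resolved from the sum. On the linear scale it stood 1087 ± 98.1 CPM (SE) above the sum of both differences. Of the 45 p53 genes, 41 also lay above the linear sum, against 52.2% of all genes tested, without a test. Where both single effects raise a gene, adding on the log2 scale already gives a level above the linear sum. These linear values therefore do not show a departure beyond that effect of scale.

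TP53I3, a quinone oxidoreductase gene induced by p53, had the smallest p of the list. It measured 18.7, 24.96 and 13.8 CPM in DMSO, 34.1, 37.3 and 25.3 in 5-Ph-IAA, 51.0, 51.6 and 42.9 in ATRi, and 200.5, 247 and 191 in the combination. The combination stood well apart and all groups were separated, with an interaction of 1.38 ± 0.30 (adjusted p = 0.201). FDXR, a mitochondrial ferredoxin reductase, was at 0.59 ± 0.17 (adjusted p = 0.325), and XPC, a sensor of nucleotide excision repair, at 0.58 ± 0.20 (adjusted p = 0.522). MDM2, the ubiquitin ligase of p53, was at 0.55 ± 0.30, the death receptor FAS at 0.75 ± 0.32, and the extracellular sulfatase gene SULF2 at 0.36 ± 0.15, none past the threshold.

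Genes that carry out apoptosis had a median close to the log2 sum. The 27 pro-apoptotic and death receptor genes had a median of 0.08, with 17 positive, 0 called by edgeR, DESeq2 or limma-voom, and 2 at an unadjusted p under 0.05. With the mitochondrial covariate 2 were called (278 of 18049 genes tested). The median ran from 0.02 without DMSO 3 to 0.21 without 5-Ph-IAA 3. BBC3, the BH3-only protein PUMA, had 36.7, 64.1 and 30.02 CPM in DMSO, 61.2, 64.4 and 32.5 in 5-Ph-IAA, 62.0, 58.2 and 46.9 in ATRi, and 72.4, 69.8 and 59.0 in the combination. Its groups overlapped, and the interaction was -0.01 ± 0.42 (95% interval -0.92 to 0.91). CASP8, the initiator caspase of death receptors, was at 0.58 ± 0.22 (adjusted p = 0.592). Of the 13 anti-apoptotic genes, 11 were positive, with a median of 0.21 (0.11 to 0.38 with 1 library left out). At an unadjusted p under 0.05 there were 3 (23.1%, against 7.30% of all genes tested). CFLAR, which blocks CASP8 activation, was at 0.76 ± 0.18 (adjusted p = 0.225). BIRC5, described above beside CCNB1, had the most negative value of this list (-1.67 ± 0.46, adjusted p = 0.322). None passed by edgeR or limma-voom, while DESeq2 called 2 (212 of 18049 genes tested) and the mitochondrial covariate fit 2.

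**Figure D3:**
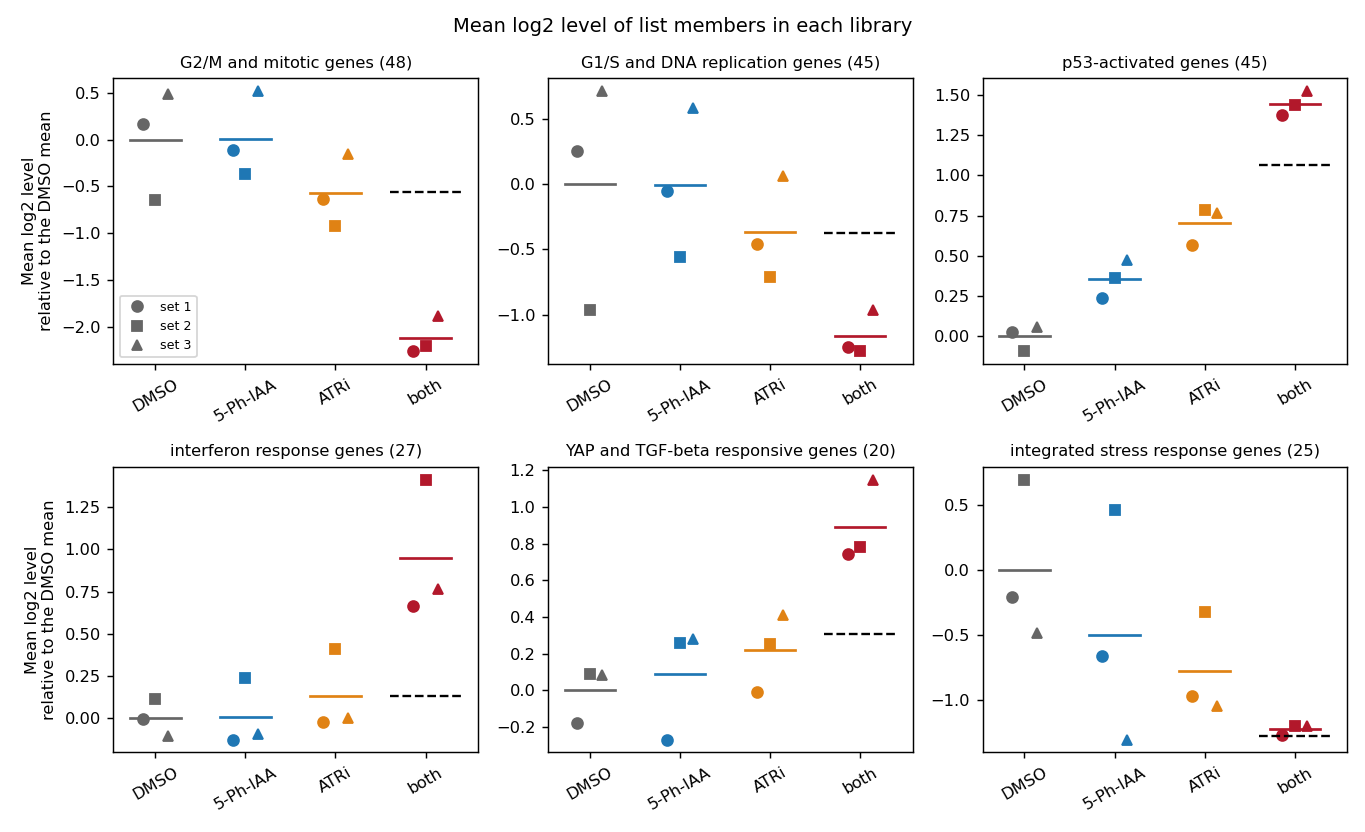
Mean log2 level of the tested members of 6 lists in each library, relative to the DMSO mean; symbols give the set number, coloured lines group means and the dashed line the sum of the single effects. In the G2/M list the combination lies between -2.26 and -1.89, below the dashed line, and in the p53 list between 1.37 and 1.52, above it, while DMSO 2 stands apart from DMSO 1 and 3 in the G2/M, G1/S and stress response lists.

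Interferon response genes, which restrict viruses and sense nucleic acids, were near DMSO with either compound and higher with both. Of 27 tested members, 26 had a positive interaction, with a median of 0.83. None passed the adjusted threshold by edgeR, 16 had an unadjusted p under 0.05 (all higher), DESeq2 called 1 and limma-voom 0. Against DMSO the median difference was -0.01 in 5-Ph-IAA, 0.11 in ATRi and 0.84 in the combination. There 15 members rose past the adjusted threshold (6.24% of all genes tested rose). The single negative member, named after its values were seen, was BST2 (-0.05).

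OASL, an oligoadenylate synthetase-like protein, led the list by its p. It had 3.90, 5.89 and 3.83 CPM in DMSO, 5.27, 6.99 and 5.17 in 5-Ph-IAA, 5.94, 7.54 and 4.54 in ATRi, and 18.3, 33.1 and 18.9 in the combination. The combination was above all 9 others, with combination 2 the highest, and the interaction was 1.60 ± 0.40 (adjusted p = 0.253). IFIT3, which binds partner proteins that recognise viral RNA, averaged 2.65, 2.64, 3.31 and 9.35 CPM in the usual order (1.498 ± 0.415, adjusted p = 0.325). Set 2 was the highest library of every group in the mean level of the list, at 0.11, 0.24, 0.41 and 1.41. Without combination 2 the list median was 0.59.

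AP-1 and other immediate early genes had a median of 0.35 with 18 of 24 positive. AP-1 proteins bind DNA as dimers downstream of JNK and other kinases. NR4A1, the orphan nuclear receptor and not an AP-1 gene, was the 1 call. In this list 5 members had an unadjusted p under 0.05. ATF3 had 19.8, 56.1 and 18 CPM in DMSO, 22.7, 56.3 and 11.99 in 5-Ph-IAA, 20.7, 44.7 and 21.8 in ATRi, and 77.3, 72.3 and 86.2 in the combination. Set 2 was the highest library of each group but the combination, and the interaction was 1.48 ± 0.78 (adjusted p = 0.798). JUN, also highest in set 2 outside the combination, was at 0.76 ± 0.43 (adjusted p = 0.824), and FOSB reached 1.47 ± 0.31 at levels of 1.62 to 3.45 CPM outside the combination and 8.95 to 10.3 CPM in it (adjusted p = 0.186). With 1 library left out the list median ran from 0.24 without 5-Ph-IAA 3 to 0.53 without 5-Ph-IAA 2. It was 0.26 in the 8 libraries left after removing the highest mitochondrial share of each group. The 28 kinases, scaffolds and phosphatases of the JNK and p38 cascades had a median of -0.04, with MAP2K3, a p38 activator, at 0.53 ± 0.16 (adjusted p = 0.408) and MAPK12, a p38 isoform, at -0.48 ± 0.17 (adjusted p = 0.534).

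YAP and TGF-beta responsive genes had a median of 0.52, with 13 of 20 positive and CCN1 called. CCN2, its close relative, had 1.42, 2.08 and 1.64 CPM in DMSO, 0.94, 1.71 and 2.21 in 5-Ph-IAA, 1.49, 1.96 and 3.19 in ATRi, and 9.88, 8.14 and 11.8 in the combination (2.24 ± 0.48, adjusted p = 0.197). LATS2, a kinase that inhibits YAP and is itself a YAP target, was at 0.89 ± 0.19 (adjusted p = 0.201). Both stood above all other libraries in the combination. In the 8 libraries left after removing the highest mitochondrial share of each group, the list median was 0.21. NF-kB and inflammatory secretory genes were positive in 20 of 20 (median 0.51), yet 0 had an unadjusted p under 0.05, 0 passed by DESeq2 or limma-voom, and the median was 0.29 without DMSO 2 and 0.18 in those 8 libraries.

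**Figure D4:**
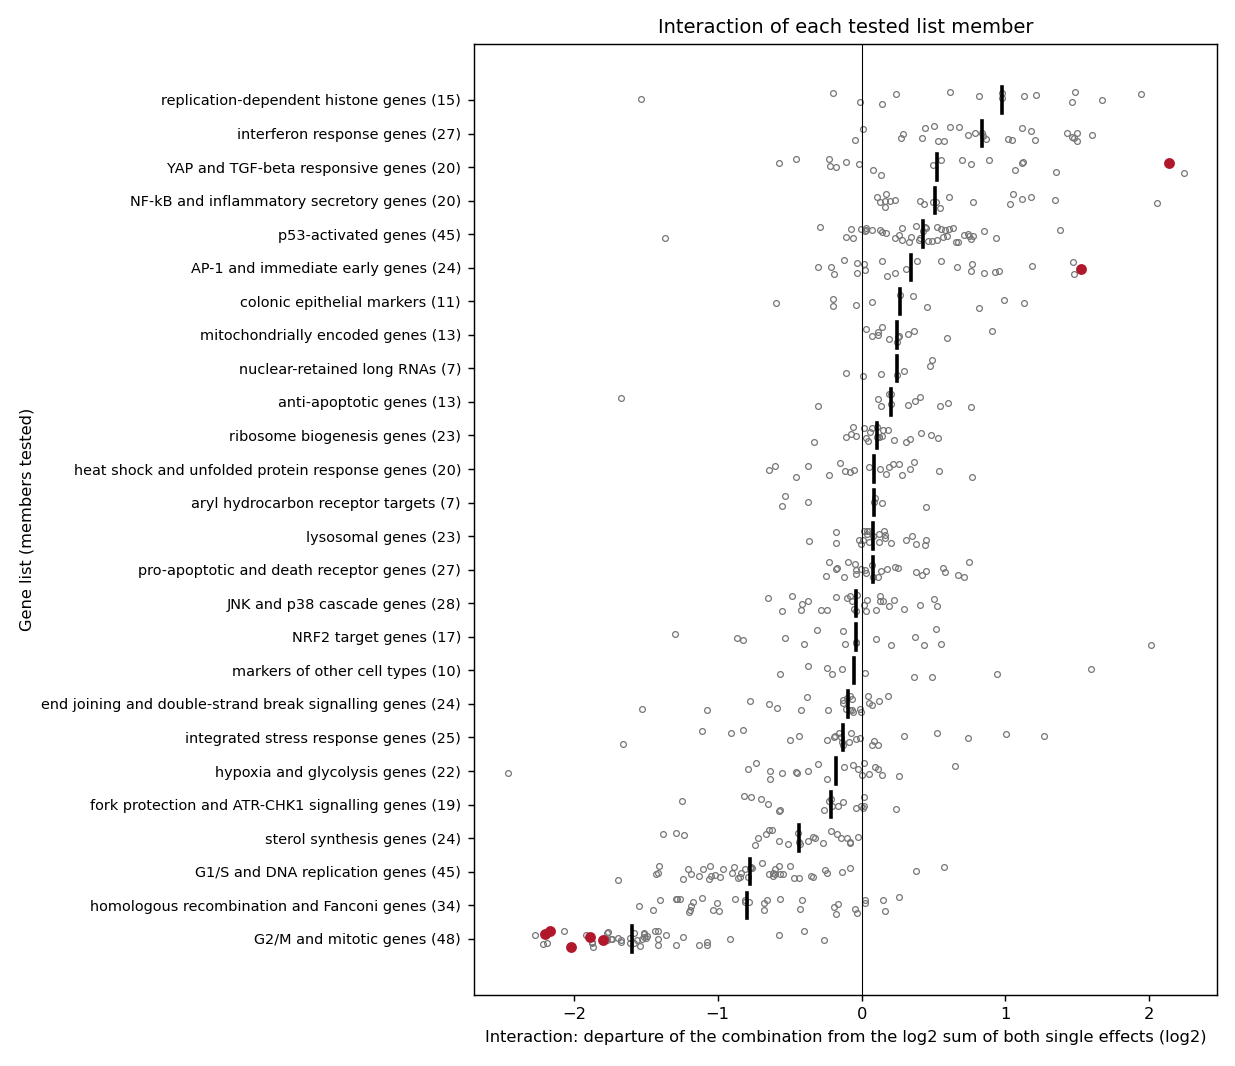
Interaction (log2) of each tested member of 26 gene lists, with the median as a black bar, members past the adjusted threshold as filled red points and other members as open points; the number tested is in brackets. Medians run from -1.60 in the G2/M list to 0.97 in the histone list, and the filled points are 5 G2/M genes, CCN1 and NR4A1.

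Genes of the integrated stress response, which the kinases of this pathway induce through ATF4 for amino acid supply, show how far the reading depends on the scale. The median difference from DMSO was -0.36 in 5-Ph-IAA, -0.80 in ATRi and -1.25 in the combination. There 12 of 25 members fell past the adjusted threshold (6.89% of all genes tested fell). The median interaction was -0.13 with 8 positive. ASNS, asparagine synthetase, had 632, 846 and 333 CPM in DMSO, 309.6, 659 and 138 in 5-Ph-IAA, 275, 392 and 203 in ATRi, and 105, 91.2 and 87.5 in the combination. The combination was lowest, and the groups DMSO, 5-Ph-IAA and ATRi overlapped. ASNS lay below the log2 sum by -0.90 ± 0.68 but above the linear sum by 39.7 ± 221 CPM, neither of them resolved from 0. Of the 25 members, 21 lay above the linear sum while 17 lay below the log2 sum. The median was -0.48 without DMSO 2 and 0.35 without 5-Ph-IAA 2, so its sign rests on single libraries. It was also positive without DMSO 3 (0.06) and without ATRi 2 (0.17).

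Replication-dependent histone genes had a median of 0.97 (12 of 15 positive, 0 called by edgeR and 1 by DESeq2, 4 at an unadjusted p under 0.05), which was 0.35 without DMSO 2. These transcripts mostly lack a poly(A) tail, and the libraries were made from poly(A) RNA. Sterol synthesis genes were negative in 24 of 24 (median -0.43, 0 called by edgeR and 2 by DESeq2, 2 at an unadjusted p under 0.05). The median was -0.17 without DMSO 2, -0.66 without DMSO 3 and -0.19 without 5-Ph-IAA 3. SCD, the stearoyl-CoA desaturase, had 2196, 1561 and 2789 CPM in DMSO, 1657, 2246 and 2729 in 5-Ph-IAA, 1748, 2545 and 2283 in ATRi, and 803, 946 and 814 in the combination. Only the combination stood apart, below all others, at -1.38 ± 0.34 (adjusted p = 0.253).

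A further 6 lists had a median close to the sum and 0 calls by edgeR. They included heat shock and unfolded protein genes (median 0.09, 20 tested), hypoxia and glycolysis (-0.18, 22) and ribosome biogenesis (0.11, 23). The others were NRF2 targets (-0.04, 17), lysosomal genes (0.08, 23) and aryl hydrocarbon receptor targets (0.08, 7). The last list bears on 5-Ph-IAA as an indole, and CYP1A1, its classical target, had a mean of 1.66 CPM in DMSO, 2.35 in 5-Ph-IAA, 1.42 in ATRi and 2.73 in the combination. The combination libraries (2.33 to 3.34 CPM) lay above those of DMSO and ATRi and overlapped those of 5-Ph-IAA, with an interaction of 0.45 ± 0.34 (adjusted p = 0.960). Without DMSO 3 the medians were -0.28 for aryl hydrocarbon receptor targets, -0.19 for heat shock, -0.34 for hypoxia and glycolysis, 0.01 for lysosomal genes and -0.12 for NRF2 targets. Without 5-Ph-IAA 3 those of lysosomal genes and NRF2 targets were 0.16 and 0.08, and without 5-Ph-IAA 2 that of ribosome biogenesis was 0.02. The medians of the aryl hydrocarbon receptor, heat shock and NRF2 lists also changed sign without certain other single libraries, so their direction is not resolved. In the 6 lists 0, 4, 1, 4, 0 and 2 members had an unadjusted p under 0.05. As shares these were 0%, 18.2%, 4.35%, 23.5%, 0% and 28.6%, against 7.30% of all genes tested. All 4 of the hypoxia and glycolysis list were lower, among them CA9 (-2.46 ± 0.61, adjusted p = 0.250), at means under 1 CPM. NQO1 is in both the NRF2 and the aryl hydrocarbon receptor list and counts in both. It was the 1 gene of the 6 lists that DESeq2 called. Among colonic epithelial markers KRT8, a simple-epithelial keratin, averaged 1942, 2235, 2451 and 4964 CPM (0.82 ± 0.20, adjusted p = 0.250), and its partner KRT18 1079, 1076, 1122 and 2225 CPM (0.99 ± 0.36, adjusted p = 0.555). Of the 11 tested members of this list, 7 were positive and 4 negative, the lowest at -0.60. The list median was 0.27, which was 0.16 without DMSO 2 and 0.10 without 5-Ph-IAA 3.

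**Figure D5:**
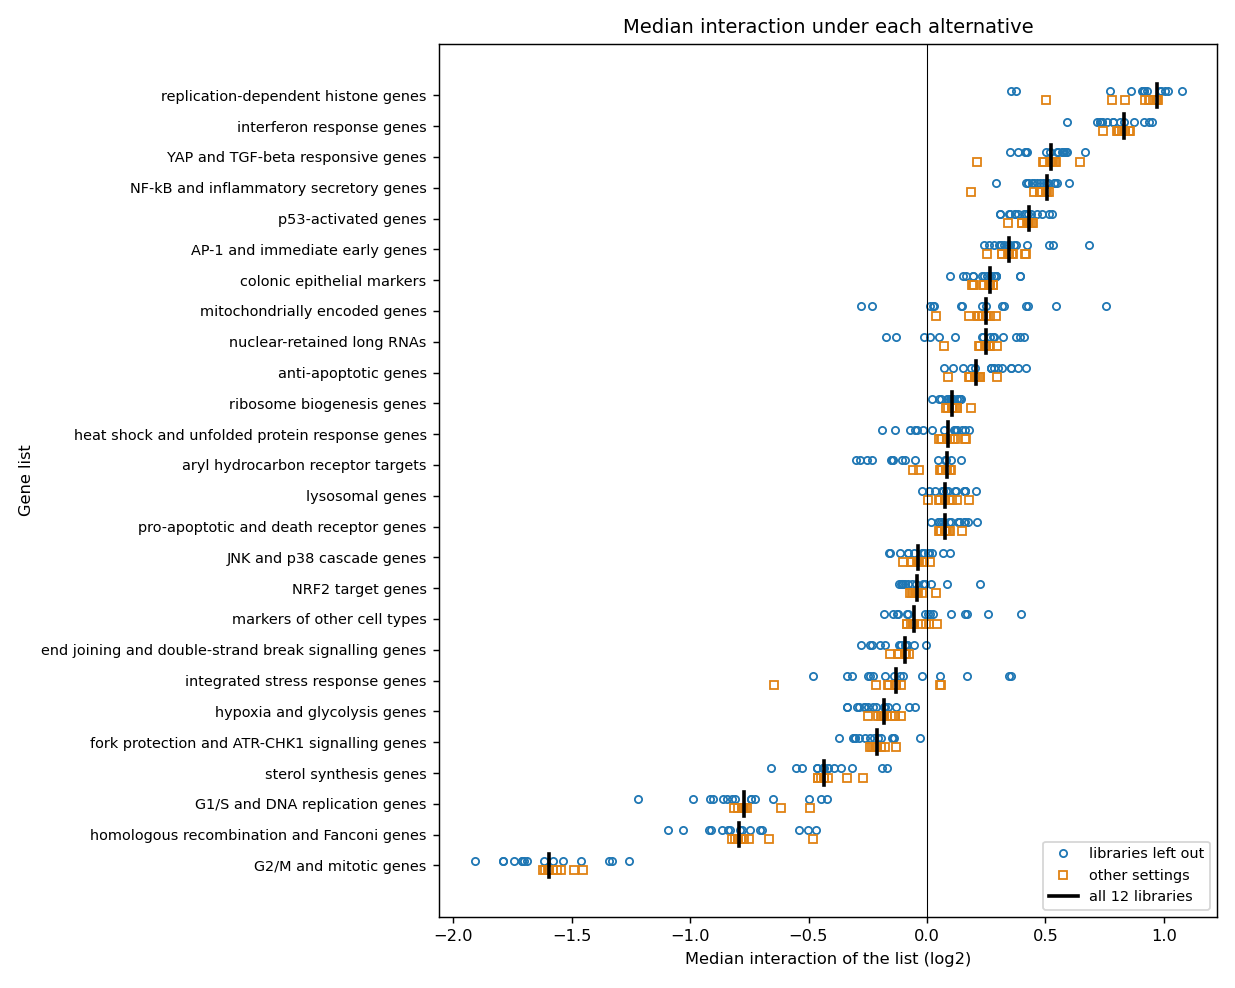
Median interaction (log2) of each list with all 12 libraries (bar), with libraries left out (circles) and under other settings (squares). The G2/M list stays between -1.91 and -1.26 and the interferon list between 0.59 and 0.95, while the mitochondrially encoded genes run from -0.28 to 0.76 and the integrated stress response genes from -0.65 to 0.35.

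Precision limits what an uncalled interaction can say. The interaction is built from 4 group means, and its median SE over genes was 0.35, against 0.24 for the combination against DMSO. A 95% interval lay wholly within 1 log2 unit of 0 for 8729 genes (48.4%), so for these a larger departure in either direction was outside the interval. For 8351 genes (46.3%) the interval held 0 and also reached past 1 or -1, and these data resolve neither additivity nor a departure.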

How the data were processed

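Poly(A) RNA of 12 libraries was sequenced. The authors deposited a table of estimated counts per gene, made with Salmon 1.10.1 after Trim Galore 0.6.7, cutadapt 3.4, STAR 2.7.9a and SAMtools 1.17 on GRCh38.p14, per the submitters' processing notes. Annotation release and strand setting were not given in the sources used, so antisense, overlapping and near-identical genes are uncertain. Deposited values, 13.6% of them fractional, were rounded to whole numbers. Depth is 27695875 to 34704711 counts per library.

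Counts were filtered with filterByExpr (minimum count 10, total 15), scaled by TMM and fitted with edgeR 4.0.16 (R 4.3.3) as 1 mean per group in 1 quasi-likelihood model of all 12 libraries. Adjusted p values are Benjamini-Hochberg over 18049 genes, with a threshold of 0.05. SE are Wald errors from the fitted dispersions, with 95% intervals, and they measure the spread between these libraries. CPM are TMM-scaled. The procedure was tested on simulated data. The linear departure is a difference of mean CPM with no test.

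The comparison, the 26 gene lists and the rules were chosen with earlier results of these data known. Named genes are 15 fixed genes, up to 12 per direction with the largest interaction among called genes of at least 5 CPM (filled by the smallest p where fewer passed), and the 3 members of each list with the smallest p. Values of some named genes are left out. Lists are described by counts and medians, and give no test. Promoters are those of RefSeq. Alternatives were other scalings and filters, DESeq2 1.42.0, limma-voom (limma 3.58.1), the set number as a block, a mitochondrial covariate, 8 libraries, and leaving out libraries.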

Additional observations from a re-analysis of the deposited data

Results flagged for a closer look

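For the 14 genes past the threshold, the effect of ATRi differed with and without 5-Ph-IAA by the test of the difference itself, the interaction term of edgeR's quasi-likelihood model. The interaction was negative for CDC25C (-2.20), PCDH7 (-1.36), NDC80 (-1.88), CENPA (-1.80), HJURP (-1.86), CPS1 (-1.36), SAMD11 (-1.95), AURKB (-2.16), CDKN3 (-1.51), NUF2 (-2.02), FAM72D (-1.93) and PIF1 (-2.57). It was positive for NR4A1 (1.53) and CCN1 (2.13).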

How the results depend on the processing

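The count of genes past the threshold was 14 with DESeq2 size factors, 20 with upper quartile factors, 12 with total counts and 14 with a stricter filter. It was 47 with no filter (4 higher, 43 lower), 212 by DESeq2 (67 and 145), 9 by limma-voom (2 and 7) and 278 with the mitochondrial share as a covariate (92 and 186). It was 0 in the fit of 8 libraries that drops the one richest in mitochondrial counts per group, where 980 genes had an unadjusted p under 0.05. Leaving out libraries gave 0 to 15. The 0 comes from leaving out a whole set number from all groups, added after seeing the data, with 657, 996 and 824 genes at an unadjusted p under 0.05 without set 1, 2 and 3. The cause of these changes was not tested, except that fits of 8 libraries hold fewer samples. The 14 genes kept their sign in all 25 alternatives, and each passed in at least 8 of them.

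With the set number as a replicate block the count was 215 (45 higher, 170 lower), including all 14. The main fit holds no term for the set number, and the labels do not say that the numbers pair the samples. Correlations between libraries of the same number in different groups, after group means were removed, were mixed. They ran from -0.09 to 0.70 in set 1, -0.07 to 0.39 in set 2 and 0.50 to 0.76 in set 3. Outside their group, 10 of 12 libraries correlated best with a library of their own number. Whether the numbers mark a shared culture or day was not tested. In the block fit 32 of 48 G2/M genes passed, against 5, as did 7 homologous recombination and Fanconi, 5 G1/S and 2 end joining genes, against 0 of each, and CCNB1 (adjusted p = 0.004973).

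No gene whose sign changed was called. With the mitochondrial covariate the interaction was 0.0319 for TIPIN, 0.207 for PRKDC and 0.0111 for ATR. In the 8 libraries it was 0.0872 for HSPE1 and 0.11 for TIPIN. With the stricter filter it was 0.0041 for PRKDC, 0.0146 for ATR and 0.0114 for BBC3, and with the replicate block 0.0045 for PRKDC. On the linear scale the departure was 5.91 CPM for SLC7A11, 39.7 CPM for ASNS, 5.49 CPM for PRKDC and 2.21 CPM for BBC3. With libraries left out the ranges were -1.27 to 0.35 for SLC7A11, -0.15 to 1.39 for MT-ND3, -0.0819 to 1.11 for MT-ND6, -0.12 to 0.59 for PVT1, -0.89 to 1.92 for MALAT1, -0.23 to 0.19 for TIPIN, -0.52 to 0.46 for PRKDC, -0.0724 to 0.0842 for ATR and -0.39 to 0.24 for BBC3. The cause was not tested.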

Other observations

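Single members of the end joining and NRF2 target lists summarised above are given here. The end joining list had a median of -0.09, and POLQ and H2AX lay well below it. POLQ, the polymerase of theta-mediated end joining, averaged 24.1 CPM in DMSO, 22.3 in 5-Ph-IAA, 13.1 in ATRi and 4.19 in the combination, where all libraries were below the other 9 (interaction -1.53 ± 0.43, adjusted p = 0.336). H2AX, the histone variant phosphorylated at breaks, averaged 135, 148, 114 and 59.2 CPM in the same order (-1.08 ± 0.29, adjusted p = 0.299). Among NRF2 targets the 2 genes with the smallest p had opposite signs. AKR1B10, an aldo-keto reductase, stood at 0.28, 0.39, 0.54 and 2.94 CPM (2.01 ± 0.54, adjusted p = 0.303), and NQO1, a quinone reductase, at 509.5, 449, 566 and 345.5 CPM (-0.53 ± 0.16, adjusted p = 0.406). None of these 4 genes passed the threshold.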
